A study of Rattus norvegicus with 14 samples.

Results

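A set of 6 arrays of cultured rat heart muscle cells, of 14 in the series, gave the late effect of JQ1 under hypertrophic stimulation. Cells in all 6 had phenylephrine (PE, 100 µM) for 48 h, 3 of them with JQ1 and 3 with its vehicle DMSO, and the arrays were picked by their titles. All 13184 genes entered, each through the probe set with the highest mean where a gene had several. The cells were neonatal ventricular myocytes of Sprague-Dawley rats, taken from pups aged 2 days, pre-plated to reduce non-myocytes and held without serum before stimulation. Beside them stood cells stimulated by PE for 6 h (2 arrays under DMSO, 3 under JQ1) and 3 arrays of cells held in DMSO for 90 min without PE, called unstimulated here. Every group was of the same strain and pup age, and JQ1 or DMSO came 6 h before PE according to the treatment protocol in the labels. The design text of the series names PE first, so the order of addition was not settled. The labels state neither a JQ1 dose nor that a group's arrays were independent cultures. The p-values therefore measure only how arrays scattered, and that scatter may be technical.

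BET proteins bind acetylated histones through their bromodomains and help recruit P-TEFb, the kinase that lets paused RNA polymerase II move into productive elongation. JQ1 occupies the bromodomain pocket, so that BET proteins leave acetylated chromatin. PE acts on alpha1-adrenergic receptors, and cultured neonatal myocytes respond to it by growing and by raising fetal and stress genes such as the natriuretic peptides.

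The arrays of a group were close to each other, with correlations across probe sets of 0.9979 to 0.9986. The first principal component of the 6 arrays held 93.3% of their variance. Array medians were 7.31, 7.28 and 7.31 with JQ1 and 7.40, 7.36 and 7.40 without it, on the log2 scale of the deposited values. The summed signal of 17 cardiomyocyte markers was 17.62 to 17.63 (log2) with DMSO and 17.59 to 17.62 with JQ1, and none of the 17 was dim in both groups. That sum hides opposite changes. In the fit described below, 7 of the 17 were raised (41.2%) and 8 lowered (47.1%), against 30% and 29.6% of all genes. Their log2 fold changes ran from -1.55 (Tnni3) to 0.73 (Hspb7). The summed signal of 17 fibroblast markers was 15.89 to 15.91 with DMSO and 15.20 to 15.24 with JQ1, so the labelled myocytes were not free of fibroblast transcripts. A gene is called dim below where its mean in a group was under 6.23, the 30th percentile of gene means over the 14 arrays. No measure of background was used.

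JQ1 changed the level of most measured genes at 48 h, and the large changes were mostly decreases. With a limma fit and Benjamini-Hochberg adjustment, 7858 genes passed an adjusted p of 0.05, which was 59.6% of those tested. Of these, 3957 were raised (30% of all genes) and 3901 lowered (29.6%). Counts of list members below are to be read against these shares. At least 2-fold changes were uneven: 185 genes were raised (1.40%) and 796 lowered (6.04%), and at 4-fold the counts were 4 and 192. The 3 arrays with JQ1 lay entirely above or below the 3 with DMSO for 8547 genes (64.8%). The median log2 fold change over all genes was 0.02. Where each array was centred on its own median, that median became 0.106 and 5207 genes were raised against 3157 lowered, so the even split of small changes rested on the scaling, and raised genes made up 62.3% of calls in place of 50.4%. Of the 3296 genes with the highest levels (above 9.69), 38 were raised and 140 lowered at least 2-fold, and of the 3296 between 5.81 and 8.0, 67 and 360.

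**Figure D1:**
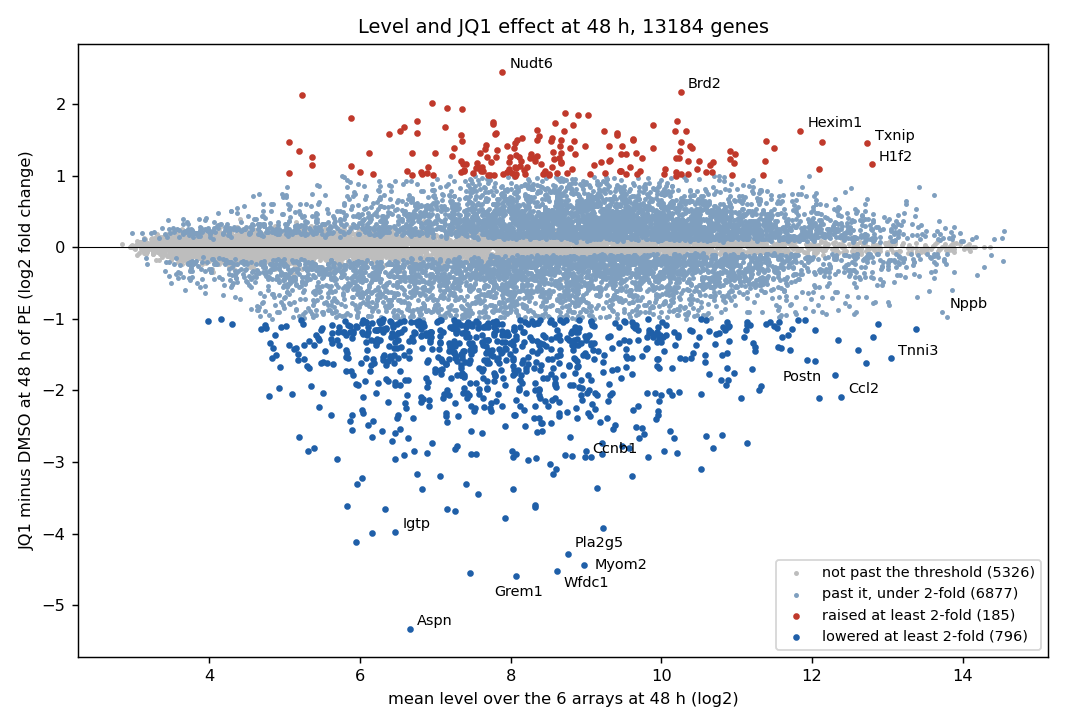
Each point is 1 of 13184 genes, with the mean level over the 6 arrays at 48 h (log2) on the x axis and the log2 fold change of JQ1 against DMSO on the y axis. The 796 genes lowered at least 2-fold spread down to -5.33 (Aspn), while the 185 raised ones end at 2.45 (Nudt6).

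The most raised genes included a BET gene itself. Nudt6, a Nudix hydrolase whose locus overlaps Fgf2 on the other strand, led with a log2 fold change of 2.45, followed by Brd2, a BET protein, with 2.17, and Fscn2, an actin-bundling fascin, with 2.12. At the other end, the lowest log2 fold changes were those of Aspn, the small matrix proteoglycan asporin (-5.33), Grem1, a secreted antagonist of bone morphogenetic proteins (-4.59), and Glod5, a protein with a glyoxalase domain (-4.55). The promoter stretches of these 6 genes are shown to set the core promoter letters of the strongest changes in each direction side by side. They are the 150 bases before the RefSeq start on GRCr8, written 5′ to 3′ on the gene's strand, with capitals for matches on either strand, overlapping ones included. The motifs marked are the GC box, whose letters are GGGCGG, the CCAAT box, and the TATA box, searched as TATAAA. They lie at chr2:122234300-122234449 (minus strand, Nudt6), chr20:4729929-4730078 (plus, Brd2), chr10:106132994-106133143 (plus, Fscn2), chr17:15310470-15310619 (minus, Aspn), chr3:120978320-120978469 (minus, Grem1) and chrX:17145786-17145935 (plus, Glod5).
Nudt6: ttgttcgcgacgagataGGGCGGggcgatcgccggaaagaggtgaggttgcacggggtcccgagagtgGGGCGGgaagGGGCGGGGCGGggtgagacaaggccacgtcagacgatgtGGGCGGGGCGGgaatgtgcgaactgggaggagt
Brd2: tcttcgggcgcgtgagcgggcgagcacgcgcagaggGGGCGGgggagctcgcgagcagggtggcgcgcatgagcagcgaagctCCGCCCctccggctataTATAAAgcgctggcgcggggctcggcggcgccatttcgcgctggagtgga
Fscn2: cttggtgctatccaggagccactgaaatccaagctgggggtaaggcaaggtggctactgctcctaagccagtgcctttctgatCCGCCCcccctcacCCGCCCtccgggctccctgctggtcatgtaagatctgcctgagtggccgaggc
Aspn: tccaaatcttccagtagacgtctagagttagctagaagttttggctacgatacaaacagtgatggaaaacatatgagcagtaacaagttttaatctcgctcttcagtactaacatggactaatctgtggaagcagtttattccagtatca
Grem1: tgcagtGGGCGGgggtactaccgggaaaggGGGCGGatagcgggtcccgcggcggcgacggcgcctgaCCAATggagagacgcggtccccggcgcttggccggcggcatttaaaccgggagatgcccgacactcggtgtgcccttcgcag
Glod5: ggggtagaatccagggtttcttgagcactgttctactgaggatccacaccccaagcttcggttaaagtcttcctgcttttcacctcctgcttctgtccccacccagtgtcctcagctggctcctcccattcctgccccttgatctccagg
The stretches of Nudt6, Brd2, Fscn2 and Grem1 held GC boxes. Aspn and Glod5 held no GC, CCAAT or TATA box in the 250 bases before the start. Over 10867 genes with a promoter in the table, 54.8% had a GC box in those 250 bases. The share was 68.4% for genes raised at least 2-fold (106 of 155) and 48.7% for genes lowered as much (298 of 612). The other motifs searched, on both strands, were AP-1 (TGANTCA), the CRE (TGACGTCA), the MYC E-box (CACGTG), the gamma-activated site (TTCNNNGAA), the cell cycle homology region (TTTGAA), the ERR element (TCAAGGTCA), E2F (TTTCCCGC), and the interferon response, NF-kappaB, heat shock and CArG elements. A match is a description of letters, not a bound site. Lists named for a factor or a response hold genes known for it, so the motif shares of their members do not bear on JQ1.

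Brd2 read 9.17, 9.22 and 9.12 on the DMSO arrays and 11.37, 11.29 and 11.35 on the JQ1 arrays. All 3 JQ1 arrays were more than 4-fold above every DMSO array, and the fitted change was 4.5-fold (log2 2.17 ± 0.048 SE, n = 3 and 3, adjusted p 2.72e-12). A second, dimmer probe set of Brd2 gave 0.25 and passed. Nudt6 read 6.76, 6.58 and 6.63 without JQ1 and 9.08, 9.10 and 9.15 with it, a clear separation (adjusted p 2.55e-11), while Fgf2 was dim in both groups and did not pass (log2 -0.11, adjusted p 0.347). The raised genes that followed were Fscn2 and Atp6v1c2 (log2 2.02), a subunit of the proton pump of acid compartments, both dim without JQ1. Next came Flrt3 (1.94), a membrane adhesion protein, Mturn (1.93), Nupr2 (1.88), a transcriptional regulator, Smtnl2 (1.85), Entpd5 (1.85) and Tmem116 (1.81). Cirbp, an RNA-binding protein induced by cold, rose by 1.77, and Fmo5, Arrdc2, C8h11orf71 and Nnat by 1.72 to 1.76. Of these, Flrt3, Tmem116 and Fmo5 were also dim without JQ1. Among the brightest 5% of genes, the most raised were Slc22a17 (1.47), Txnip (1.45), an inhibitor of thioredoxin and of glucose uptake, the linker histone gene H1f2 (1.16), Dynll2 (1.09), a dynein light chain, and the small heat shock protein gene Hspb6 (0.84).

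Aspn fell from 9.37, 9.32 and 9.31 on the DMSO arrays to 4.23, 3.73 and 4.04 on the JQ1 arrays, a log2 change of -5.33 (adjusted p 1.52e-12). It was dim with JQ1, so the size depends on the floor of the probe set, and its second probe set gave -4.04. Grem1 fell from 10.44, 10.39 and 10.28 to 5.79, 5.66 and 5.88, also dim with JQ1 (log2 -4.59, adjusted p 3.56e-13). Myom2, which encodes an M-band protein of the sarcomere, fell from 11.19, 11.20 and 11.17 to 6.64, 6.60 and 7.0, or 21.7-fold (adjusted p 8.8e-13). All 3 genes lost most of their signal on every JQ1 array. Wfdc1, a secreted protein with a protease inhibitor fold, fell by 4.52 on the log2 scale, and Pla2g5, a secreted phospholipase, had a change of -4.28. The other most lowered genes were the interferon-induced genes Gbp4 (-4.12), Igtp (-3.97), Isg15 (-3.92), Mx2 (-3.68), Rtp4 (-3.66), Ddx60 (-3.65) and Gbp7 (-3.63), the galectin gene Lgals9 (-3.78) and Prl8a9 (-3.99). All of these but Isg15 and Gbp7 were dim with JQ1, as was Glod5. Dimmer probe sets gave -0.04 for Mx2, which did not pass, and -1.02 for Igtp, which passed. Of the bright genes, Fxyd1, the sodium pump regulator phospholemman, had a change of -2.10, the chemokine gene Ccl2 -2.09, Postn -1.79, Ifi27 -1.61 and Sh3kbp1 -1.59.

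Genes of the machinery that JQ1 acts on were mostly raised. Of 29 measured BET and elongation genes, 20 were raised and 3 lowered, with a median of 0.26, against 30% raised over all genes. Hexim1, which encodes an inhibitor of P-TEFb, read 11.04, 10.99 and 11.07 without JQ1 and 12.64, 12.64 and 12.69 with it. That is a 3.09-fold rise with no overlap (log2 1.63 ± 0.04 SE, adjusted p 5.86e-12). Polr2a, the largest subunit of RNA polymerase II, rose by 1.38, Mllt3, a member of the super elongation complex, by 1.41, Paf1 by 0.66, Cdk9, the kinase of P-TEFb, by 0.42 and Brd3 by 0.23. Against these, Hexim2, the relative of Hexim1, fell by 0.82 and Jmjd6 by 0.65. Histone genes rose together: 10 of 11 passed, all upward, with a median of 1.16 and 6 at least 2-fold. H2ax rose by 1.59, H3c1 by 1.60, H1f10 by 1.50, H2ac25 by 1.41 and H2aj by 0.98, while H2ac1 did not pass. In 9 of the 10 histone promoters available a CCAAT box was found (90.0%, against 35.2% of all promoters) and in 4 a TATA box (40.0% against 8.02%). Many histone transcripts end without a poly(A) tail, and whether the labelling read only tailed forms was not tested. Of 48 chromatin modifier genes, 21 were raised and 11 lowered (median 0.10). The shares were 43.8% and 22.9%, against 30% and 29.6% of all genes. Kmt2c, a histone methyltransferase, rose by 0.75 and Ezh1 by 0.75, and Smarcd3, a heart-enriched subunit of the BAF remodelling complex, fell by 1.45. In the MYC and MXD network of 12 genes, 5 were raised and 3 lowered, and without the third JQ1 array or with only these 6 arrays fitted the raised count was 3. Myc itself read 8.38, 8.35 and 8.36 without JQ1 and 8.25, 8.01 and 8.07 with it (log2 -0.25, adjusted p 0.0146), a small decrease that some settings did not call.

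Classic markers of hypertrophy were mostly lowered by JQ1. Of 26 measured markers, 20 were lowered and 1 raised, with a median of -0.40, and 5 did not pass (Acta1, Fhl1, Xirp1, Lif and Il11). Nppb, which encodes the B-type natriuretic peptide, read 14.18, 14.14 and 14.21 with PE alone and 13.29, 13.21 and 13.33 with JQ1 and PE. Every JQ1 array lay below every DMSO array, a 1.87-fold decrease (log2 -0.90 ± 0.041 SE, adjusted p 1.09e-09), and the mean with JQ1 equalled the unstimulated mean of 13.28. Nppa, the atrial natriuretic peptide gene, read 14.65, 14.63 and 14.62 against 14.44, 14.45 and 14.44, a separate but small decrease of 0.19 from a signal near the top of the scale. Acta1, skeletal alpha-actin, read 14.04, 14.06 and 14.04 against 14.09, 14.04 and 14.07. These groups overlapped, and the change of 0.02 ± 0.03 SE did not pass (adjusted p 0.591). For Fhl1 and Xirp1 the values were 0.01 and -0.07, and for the cytokine genes Lif and Il11, dim in both groups, 0.08 and -0.04. PE at 48 h compared with unstimulated cells gave 0.78 for Acta1, 1.09 for Fhl1, 0.84 for Xirp1, 0.78 for Nppa and 0.90 for Nppb. That comparison shares the DMSO arrays at 48 h with the JQ1 effect, and it mixes PE with time because the unstimulated cells were taken at 90 min.

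Among the signalling members of the list, Rcan1, a feedback inhibitor and target of calcineurin, read 12.15, 12.07 and 12.05 with DMSO and 10.92, 10.91 and 11.08 with JQ1, with no overlap (log2 -1.13, adjusted p 1.04e-09). Il6, the cytokine interleukin 6, read 7.83, 7.55 and 7.55 against 4.24, 4.36 and 4.66, a decrease that ended in the dim range (log2 -3.22). Tgfb2, a TGF-beta ligand, fell by 1.56, Hbegf, a ligand of the EGF receptor, by 0.71, and Ccn2, connective tissue growth factor, by 0.59. Myh7, beta-myosin heavy chain, fell by 0.39, Ankrd1 by 0.11, and Myh6, alpha-myosin heavy chain, did not pass (log2 0.00, adjusted p 0.938), although its dimmer second probe set was raised by 0.46 (adjusted p 0.00644). The single raised marker was Timp1, an inhibitor of matrix proteases (0.27). Postn, a member of this list that is also among the fibroblast markers, fell by 1.79. Of the 26 markers, 19 were raised and 1 lowered by PE at 48 h (21.4% and 22.6% of all genes), and JQ1 with PE against unstimulated cells gave 9 raised and 10 lowered (31.6% and 29.2%), again with shared arrays. Around calcineurin, 10 of 19 genes were raised, among them the catalytic subunit genes Ppp3cc (0.81) and Ppp3cb (0.35) and Cib1 (0.50). The other probe sets of Ppp3cb gave -0.08, which did not pass, and 0.42. Lowered were 7, with the calcium channel gene Trpc6 at -2.96. Among 15 natriuretic and cGMP genes 8 were lowered and none raised (1 under centring). Mme, the protease that degrades natriuretic peptides, fell by 1.19 and their receptor genes Npr2 and Npr3 by 1.04 and 0.52.

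**Figure D2:**
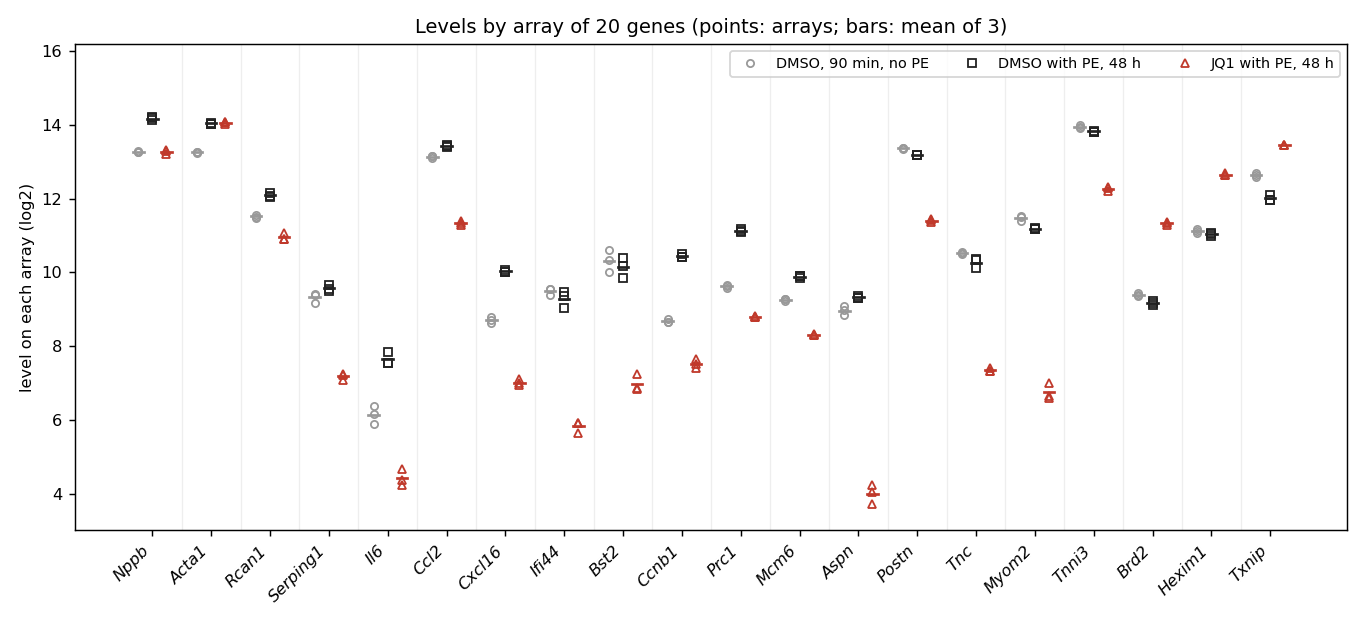
Levels (log2, y axis) of 20 genes on the 3 arrays each of unstimulated cells (grey circles), DMSO with PE at 48 h (black squares) and JQ1 with PE at 48 h (red triangles), with bars at the means. Nppb with JQ1 sits at its unstimulated level of 13.28, the JQ1 arrays of Acta1 lie among its PE arrays, and Brd2, Hexim1 and Txnip lie above both other groups.

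Contractile genes did not move as a block. Of 34 sarcomere genes, 12 were raised and 18 lowered, 4 of these at least 2-fold, with a median of -0.15. The shares were 35.3% and 52.9%, against 30% and 29.6% of all genes. Tnni3, the adult cardiac troponin I, read 13.85, 13.82 and 13.81 with DMSO and 12.21, 12.29 and 12.31 with JQ1, a 2.94-fold decrease without overlap (adjusted p 3.28e-12). Myl4, an atrial light chain, fell by 2.28, Myl3, the ventricular essential light chain, by 0.97 and Myom1, the other M-band protein beside Myom2, by 1.10. In the other direction, Tcap, the titin cap of the Z-disc, rose by 0.99 and Mybpc3, myosin-binding protein C, by 0.65. Calcium handling was as divided, with 10 of 25 genes raised and 10 lowered (40.0% each). Casq1, a calsequestrin that stores calcium in the reticulum, fell by 2.84, Hrc, a histidine-rich calcium binder of the same store, by 1.56 and Dhrs7c by 1.57. The calcium pump gene Atp2a2 rose by 0.13, its inhibitor phospholamban (Pln) by 0.27, and the store-operated channel gene Orai1 by 0.87. Dimmer probe sets of Atp2a2 gave 0.25, 0.55 and 0.36, which passed, and -0.15, which did not. Of 33 ion channel and connexin genes, 15 were lowered (45.5%) and 4 raised (12.1%). Scn3b, a sodium channel beta subunit, read 10.19, 10.18 and 10.14 with DMSO and 7.27, 7.33 and 7.21 with JQ1, so every JQ1 array was far below (log2 -2.90). Gja5, which encodes connexin 40, fell by 1.69, the KATP channel gene Kcnj11 by 1.53 and Scn4b by 1.00, while Kcnj12 rose by 0.71. A dimmer probe set of Gja5 gave 0.06 and did not pass. For Kcnj11 the dimmer ones gave -0.99, which passed, and 0.03, which did not.

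Cardiac transcription factors leaned upward, with 13 of 27 raised (48.1%, against 30% of all genes). Lowered were 8 (29.6%, the same as the share of all genes), and the median was 0.19. Gata6 rose by 0.89, Hand2 by 0.64, Irx2 by 1.08, Meis1 by 0.54 and the Notch target Hey2 by 0.69. Tbx5 went the other way, from 8.53, 8.55 and 8.56 to 7.35, 7.41 and 7.31, with no overlap (log2 -1.19, adjusted p 2.54e-10), and Irx3 fell by 0.89 and Mef2c by 0.36. Dimmer probe sets of Gata6 (0.09) and Irx3 (0.20) did not pass, and another of Irx3 gave -0.91. Cytoskeletal and serum response factor genes were lowered in 23 of 31 cases and raised in 5 (median -0.45). Calponin (Cnn1) fell by 2.02, the regulatory light chain Myl9 by 1.44, Tubb2a by 1.08, smooth muscle actin (Acta2) by 1.05 and Tagln2 by 1.01, and Actg1 rose by 0.20. Smooth muscle and pericyte markers, 5 of which are also in this list, were lowered in 12 of 16 cases on the same arrays, with a summed signal of 14.62 to 14.65 (log2) with DMSO and 14.39 to 14.45 with JQ1, and their part in these values was not tested. Of 28 promoters of the cytoskeletal and serum response factor genes, 4 held a CArG box (14.3%), the letters bound by that factor, against 1.22% of all promoters. Immediate early genes split, with 9 of 27 raised (33.3%) and 11 lowered (40.7%), 7 under centring. Junb rose by 0.97 and Egr1 by 0.62, and Maff fell by 1.45, Klf4 by 0.74 and Fosl1 by 0.74.

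Genes of cell division were lower with JQ1 without exception among those measured. All 38 passed and fell, 35 at least 2-fold, with a median of -1.81, where 29.6% of all genes were lowered. Ccnb1, cyclin B1, which drives entry into mitosis, read 10.43, 10.49 and 10.43 with DMSO and 7.53, 7.64 and 7.40 with JQ1. The groups were nearly 3 log2 units apart, a 7.6-fold decrease (log2 -2.93 ± 0.059 SE, adjusted p 1.2e-12), while a second probe set gave -1.67. Prc1 and Racgap1, which act in the central spindle, had log2 fold changes of -2.34 and -2.32, the mitotic kinesin gene Kif20a -2.39, and Cdca8, a subunit of the chromosomal passenger complex, -2.0. The smallest decrease was that of Kif15 (-0.44). All 38 were raised by PE at 48 h (21.4% of all genes), with a median of 1.21. When JQ1 with PE was set against unstimulated cells, 35 were lowered (29.2% of all genes) and none raised (median -0.63). Both comparisons have arrays in common with the JQ1 effect. At 6 h the JQ1 effect on these genes had a median of -0.35, with 24 lowered (28.8% of all genes) and 1 raised (25.5%).

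DNA replication genes followed to a smaller extent, with 31 of 34 lowered and none raised, or 3 raised under centring (median -0.56). Mcm6, a subunit of the replicative helicase, read 9.90, 9.90 and 9.85 against 8.31, 8.34 and 8.30, again without overlap (log2 -1.56). Rrm1, ribonucleotide reductase, fell by 1.21, Pola2 by 1.44, the E2F repressor gene E2f8 by 1.87 and Uhrf1 by 1.45, and Pcna did not pass (log2 0.05). Of the G1 regulators, Ccnd1, cyclin D1, fell from 11.57, 11.43 and 11.53 to 8.87, 8.80 and 8.85, a gap many times the spread of either group (log2 -2.67). Cdkn3 fell by 2.15, Rbl1 by 1.05 and Cdkn2c by 0.95, while the inhibitor gene Cdkn1c rose by 1.34 and Ccng2 by 1.42. The dimmer probe set of Cdkn2c gave 0.14 and did not pass. A CCAAT box was present in 25 of 32 cell division promoters (78.1% against 35.2%). The letters TTTGAA, the cell cycle homology region, were present in 15 of them (46.9% against 10.8%). Fibroblasts in such cultures can divide, and the summed fibroblast markers fell on the same arrays. Their part in these values was not tested.

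Interferon-stimulated genes, which cells use against viruses, had the lowest median of all 57 lists. Of 36 measured, 33 were lowered and none raised, 27 at least 2-fold, with a median of -2.02, and Oas1b, Trim25 and Zbp1 did not pass. Isg15, a ubiquitin-like protein attached to other proteins, read 11.27, 11.39 and 10.91 with DMSO and 6.91, 7.26 and 7.65 with JQ1. Its arrays scattered more than those of most genes and still did not overlap, with a 15.1-fold decrease (log2 -3.92 ± 0.21 SE, adjusted p 5.41e-09). Ifi44 read 9.35, 9.46 and 9.03 against 5.65, 5.93 and 5.93, and Bst2, the tetherin that holds virions to the cell, 10.17, 10.38 and 9.86 against 6.87, 7.25 and 6.84. In both the JQ1 arrays were at least 2 log2 units below every DMSO array. Lgals3bp fell by 2.62, Gbp2 by 2.17, Ifi27 by 1.61 and Ifitm3, which blocks viral entry, by 1.41. PE did not raise any of these 36 genes at 48 h (21.4% of all genes were raised). Against unstimulated cells 15 were lower (22.6% of all genes), with a median of -0.27. With JQ1 and PE all 36 were lower than unstimulated (29.2% of all genes), with a median of -2.27. That comparison shares the JQ1 arrays. Antigen processing genes went the same way, with 12 of 16 lowered and 1 raised. The immunoproteasome subunit genes Psmb8 and Psmb9 fell by 2.06 and 1.42 and the peptide transporter genes Tap1 and Tap2 by 1.16 and 1.08. A dimmer probe set of Tap1 gave 0.04 and did not pass.

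Promoters of interferon genes are shown because most held the letters of the interferon-stimulated response element, GAAA, any 2 bases and GAAA. Of 29 promoters available, 19 held it within 250 bases (65.5%), against 2.70% of all promoters, 6.86% of those of genes lowered at least 2-fold and 2.58% of those raised as much. In the 150 bases printed, from RefSeq on GRCr8 and 5′ to 3′, capitals mark that element on either strand. The windows are chr6:128355162-128355311 (plus, Ifi27), chr10:104127849-104127998 (minus, Lgals3bp), chr1:205541759-205541908 (minus, Ifitm3) and chr2:243303841-243303990 (minus, Ifi44).
Ifi27: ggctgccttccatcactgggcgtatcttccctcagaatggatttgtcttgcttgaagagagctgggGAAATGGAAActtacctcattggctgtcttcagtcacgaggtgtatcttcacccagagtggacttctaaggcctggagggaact
Lgals3bp: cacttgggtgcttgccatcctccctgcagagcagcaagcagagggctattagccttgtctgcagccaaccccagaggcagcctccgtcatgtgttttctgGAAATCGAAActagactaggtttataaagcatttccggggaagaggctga
Ifitm3: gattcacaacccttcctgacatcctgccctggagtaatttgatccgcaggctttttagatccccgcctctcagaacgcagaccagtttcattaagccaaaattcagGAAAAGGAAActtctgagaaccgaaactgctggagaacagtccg
Ifi44: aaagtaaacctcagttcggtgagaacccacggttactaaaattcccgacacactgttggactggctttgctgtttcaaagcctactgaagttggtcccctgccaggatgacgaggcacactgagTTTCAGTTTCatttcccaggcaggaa
The 19 genes with the element had a median log2 fold change of -2.17, from -3.97 to -0.32, and the 10 without it -1.50, from -2.31 to -0.11, so the ranges overlapped. Leukocyte markers were dim in both groups for 13 of 18, with 5 lowered and 1 raised. The shares were 27.8% and 5.56%, against 29.6% and 30% of all genes. The summed signal of these markers was 10.64 to 10.72 (log2) with DMSO and 10.14 to 10.25 with JQ1. Their part in the interferon result was not tested.

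**Figure D3:**
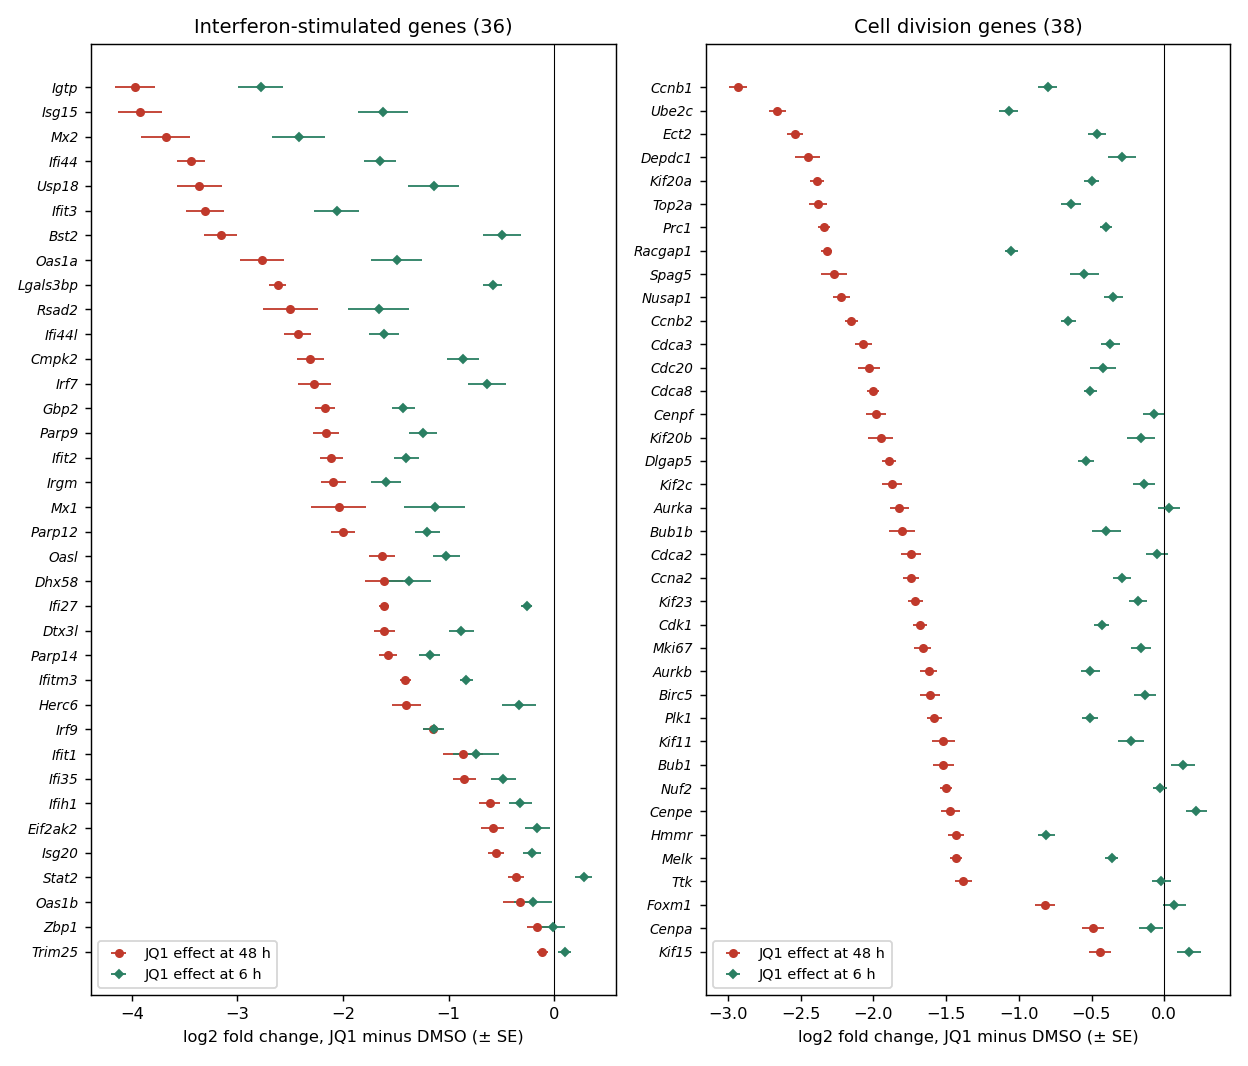
Log2 fold change of JQ1 against DMSO (x axis, ± SE) at 48 h (red circles) and at 6 h (green diamonds) for the 36 interferon-stimulated genes (left) and the 38 cell division genes (right). The median of the cell division genes was -0.35 at 6 h, with 24 of 38 lowered, and -1.81 at 48 h, and that of the interferon genes -1.07 and -2.02.

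Inflammatory signals were lowered as well. Among 41 cytokine and chemokine genes, 31 were lowered, 18 at least 2-fold, and 1 raised, and 18 were dim in both groups (median -0.72). Ccl2, which attracts monocytes, was the brightest of those named: 13.40, 13.44 and 13.45 with DMSO and 11.39, 11.29 and 11.35 with JQ1. That is a gap of 2 log2 units with very little scatter (log2 -2.09, adjusted p 7.72e-13). Ccl7 read 11.66, 11.61 and 11.64 against 8.83, 8.71 and 8.75, also fully apart (log2 -2.87). Cxcl16 fell by 3.02, Ccl20 by 2.74 and Il1rl1, the receptor of interleukin 33, by 2.44. A dimmer probe set of Il1rl1 gave -0.14 and did not pass. The raised one, Tnfsf11, was dim in both groups and was not called in 5 other settings, among them those without the third JQ1 array or any single DMSO array. PE at 48 h raised 22 of the 41 (21.4% of all genes), with a median of 0.25. That comparison stands side by side with the JQ1 effect and shares its DMSO arrays. Of 17 NF-kappaB factors and adhesion targets, 12 were lowered and none raised, or 2 raised under centring, with Vcam1 at -1.28, Bcl3 at -1.14, Nfkbiz at -0.76 and Icam1 at -0.46. Dimmer probe sets gave -0.16 and 0.04 for Bcl3 and 0.24 for Nfkbiz, and none of these passed. Complement genes were lowered in 10 of 20 cases, and the bright ones moved most: Serping1, the C1 inhibitor, by -2.38, C1s by -1.93, C1r by -1.85 and C3 by -1.06. Of 31 cytokine promoters, 19.4% held the NF-kappaB letters (1.54% of all), 22.6% the AP-1 letters TGANTCA (4.83%) and 41.9% a TATA box (8.02%).

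The extracellular matrix was among the most lowered groups. Of 43 glycoproteins, proteoglycans and crosslinkers, 37 were lowered, 22 at least 2-fold, and 3 raised, with a median of -1.14. Postn, periostin, a matricellular protein of activated fibroblasts, read 13.19, 13.20 and 13.19 with DMSO and 11.37, 11.42 and 11.44 with JQ1. The arrays of each group nearly coincided, and the decrease was 3.45-fold (log2 -1.79 ± 0.035 SE, adjusted p 1.2e-12). Tenascin C (Tnc) read 10.36, 10.34 and 10.11 against 7.41, 7.34 and 7.32, a wide gap (log2 -2.91). Ogn, the proteoglycan osteoglycin, fell by 2.74 and Ccn3 by 2.51, while fibronectin (Fn1) rose by 0.23 and Nid2 by 0.22. Collagens fell less: 25 of 37 were lowered and 1 raised, with a median of -0.32 and 12 dim in both groups. Col3a1 fell by 1.25, Col6a1 by 1.27, Col15a1 by 1.34, Col5a1 by 0.94 and Col1a1 by 0.85, and Col18a1 rose by 0.29. Of 16 integrin subunit genes 11 were lowered and 1 raised, with Itga9 at -2.03 and Itga8 at -1.65. The dimmer probe set of Itga9 gave 0.03 and did not pass, and that of Itga8 gave -1.53.

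Fibroblast markers fell on the same arrays. Of 17, 16 were lowered and none raised, with a median of -1.06, and 7 of the 17 are also in other lists (3 collagens and 4 matrix genes, Postn among them). Postn is in the list of hypertrophy markers as well. Mfap5 fell by 2.89, Dpt by 2.13, Pdgfra, a receptor used to mark fibroblasts, by 1.71 and decorin (Dcn) by 1.45. Vim did not pass: 13.50, 13.54 and 13.50 with DMSO and 13.50, 13.50 and 13.53 with JQ1, with overlapping arrays. None of the 17 was dim in both groups. In such bulk RNA, fewer fibroblasts and less of these transcripts per cell cannot be told apart. The part of fibroblasts in the matrix, cytokine, TGF-beta and hypertrophy marker results was not tested. Smooth muscle and pericyte markers had a median of -0.54. Endothelial markers were dim in both groups for 11 of 16, with Kdr at -1.06. Of 9 epicardial and mesothelial markers, 4 were lowered (44.4%) and 1 raised (11.1%), with a median of -0.18, from Krt18 at -2.50 to Tbx18 at 0.40. Over all genes, 29.6% were lowered and 30% raised.

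Ligands and receptors of growth pathways were mostly lowered. Of 36 TGF-beta and BMP genes, 26 were lowered, 14 at least 2-fold, and 2 raised (median -0.58). Besides the antagonist Grem1, the ligand Bmp2 fell by 1.66 and the activin-binding Fst and Fstl3 by 1.62 and 1.52, while the receptor gene Tgfbr1 rose by 0.51. Of 53 growth factor and receptor genes 36 were lowered and 4 raised (median -0.46). Igf1 read 9.75, 9.71 and 9.70 with DMSO and 8.08, 8.06 and 8.01 with JQ1, with tight and separate groups (log2 -1.67). The change was -2.21 for Igfbp3, -3.62 for Esm1, an endothelial proteoglycan, and -0.97 for Vegfc, and Ntf3 rose by 0.94. Matrix proteases and fibrinolysis genes had 24 of 35 lowered and 6 raised. Thbd, the anticoagulant thrombomodulin, was at -2.39, Mmp23 at -2.19, Adamts1 at -1.97 and the urokinase receptor gene Plaur at -1.92, and Tfpi rose by 0.72. Of 21 phospholipase and prostanoid genes 11 were lowered and none raised (1 under centring). Pla2g5 read 10.84, 10.96 and 10.89 against 6.61, 6.51 and 6.72, so the whole group of JQ1 arrays was more than 4 log2 units lower. Log2 fold changes were -3.10 for Pla2g2a, -2.63 for Ptgis, prostacyclin synthase, -1.43 for Ptgs1 and -0.86 for Ptgs2, the inducible cyclooxygenase.

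Receptor signalling genes near PE's own pathway were also lowered in part. Of 24 G protein-coupled receptor genes 13 were lowered and 3 raised (54.2% and 12.5%, against 29.6% and 30% of all genes). Adra1d, an alpha1-adrenergic receptor, fell by 2.32 into the dim range, and Adra1a did not pass. The sphingosine phosphate receptor genes S1pr3 and S1pr1 fell by 2.23 and 1.70 and the angiotensin receptor gene Agtr1a by 0.81. RGS proteins, which shorten G protein signals, and Gq genes had 10 of 23 lowered (43.5%), 5 under centring, and 8 raised (34.8%). Rgs3 fell by 2.06, Rgs4 by 1.83 and Rgs2 by 0.94, and Rgs10 rose by 0.79. Of 16 MAP kinase phosphatase and feedback genes 7 were lowered (43.8%) and 3 raised (18.8%), with Ptprr at -2.85, Dusp8 at -1.53 and Dusp5 at 1.20.

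Metabolic genes gave a mixed picture. Cholesterol and lipid synthesis genes were lowered in 27 of 33 cases, 7 at least 2-fold, and raised in 5 (median -0.39). Scd, the stearoyl-CoA desaturase, read 10.56, 10.68 and 10.65 with DMSO and 8.02, 8.23 and 8.19 with JQ1, clearly apart (log2 -2.48). Fads1 fell by 1.56, their regulator Srebf1 by 1.30 and Msmo1 by 1.10, and the cholesterol exporter Abca1 rose by 0.60. Glycolysis was evenly divided, with 14 of 35 raised and 14 lowered (40.0% each, against 30% and 29.6% of all genes). Pgam2 fell by 2.06, the insulin-regulated glucose transporter Slc2a4 by 1.60, Eno3 by 1.48 and the lactate exporter Slc16a3 by 1.12, whereas Aldoc rose by 1.62 and Gpi by 0.60. Fatty acid uptake and oxidation genes were not far from the shares of all genes, with 14 of 35 raised (40.0% against 30%). Lowered were 8 (22.9% against 29.6%), and the median was 0.07 against 0.02. Cpt1a, which controls entry of fatty acids into mitochondria, rose by 1.25, Hadh by 1.05 and Acadvl by 0.64, and the lipid droplet gene Plin2 fell by 1.60. A dimmer probe set of Hadh gave 0.11 and did not pass.

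Among mitochondrial regulators 8 of 20 were raised, with Klf15 at 0.85 and Lpin1 at 0.80, and 5 lowered, with Perm1 at -1.77 and Ppargc1b at -0.98. Ppargc1a, PGC-1 alpha, read 7.78, 8.13 and 7.64 with DMSO and 8.15, 7.48 and 8.55 with JQ1. These arrays overlapped and the change did not pass (log2 0.21 ± 0.24 SE, adjusted p 0.499). Of 77 respiratory chain genes 38 were lowered and 12 raised by small amounts (median -0.09), and under centring the counts were 23 and 19. Mitochondrial ribosomal genes had 34 of 73 lowered (46.6%), with Mrps15 at -0.93, and 24 raised (32.9%), with Mrpl57 at 0.78. Of 14 genes that buffer energy and oxygen 8 were lowered and 3 raised, with Ckmt2, mitochondrial creatine kinase, at -2.56, Ckmt1 at -2.16, myoglobin (Mb) at -1.51 and muscle creatine kinase (Ckm) at -0.87. Of 37 cytosolic ribosomal protein genes 4 were raised and 4 lowered (10.8% each, median -0.01), and under centring 18 were raised and none lowered. Ribosome biogenesis genes had 20 of 42 lowered and 11 raised, with Ltv1 at -0.88 and Gar1 at -0.75, and the polyamine enzymes Sms and Amd1 rose by 0.80 and 0.78.

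Genes of atrophy, FOXO signalling and autophagy were the list with the largest share raised after histones, 23 of 28 with 2 lowered (median 0.41). Txnip read 12.11, 11.96 and 11.97 with DMSO and 13.45, 13.46 and 13.47 with JQ1, with no overlap (log2 1.45, adjusted p 1.18e-10). Pik3ip1, a brake on PI3 kinase, rose by 1.55, the autophagy kinase gene Ulk1 by 1.50, Atg12 by 0.90, Pink1, which marks damaged mitochondria, by 0.90 and the muscle ubiquitin ligase gene Trim63 by 0.46. Trim54, a relative of Trim63, went from 11.23, 11.18 and 11.20 down to 7.97, 8.04 and 8.0, the opposite of the list (log2 -3.20). In PE at 48 h against unstimulated cells, 16 of the 28 were lowered (22.6% of all genes) and 2 raised (21.4%). The DMSO arrays are shared. Heat shock genes were raised in 16 of 24 cases and lowered in 6 (median 0.34). Hspb7 rose by 0.73, Stip1 by 0.73 and Dnajb1 by 0.56, and Hspb3 fell by 2.10. The heat shock element was found in 3 of 22 heat shock gene promoters (13.6%) and in 0.359% of all. NRF2 and antioxidant genes were raised in 18 of 30 cases and lowered in 7. Gclc, which makes the first step of glutathione synthesis, rose by 1.39, Mt2A by 1.48 and Hmox1, heme oxygenase, by 1.19, and Sod3 fell by 1.20. In the integrated stress response 24 of 33 genes were lowered and 4 raised, with Aldh1l2 at -1.83 and Phgdh at -1.15, although Ddit3 rose by 1.02. ER chaperone genes had 15 of 23 lowered and 1 raised, with their regulator Xbp1 at -0.77. Proteasome subunits of the constitutive type shifted little, with 12 of 29 raised and 2 lowered (median 0.06), and 19 raised under centring.

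**Figure D4:**
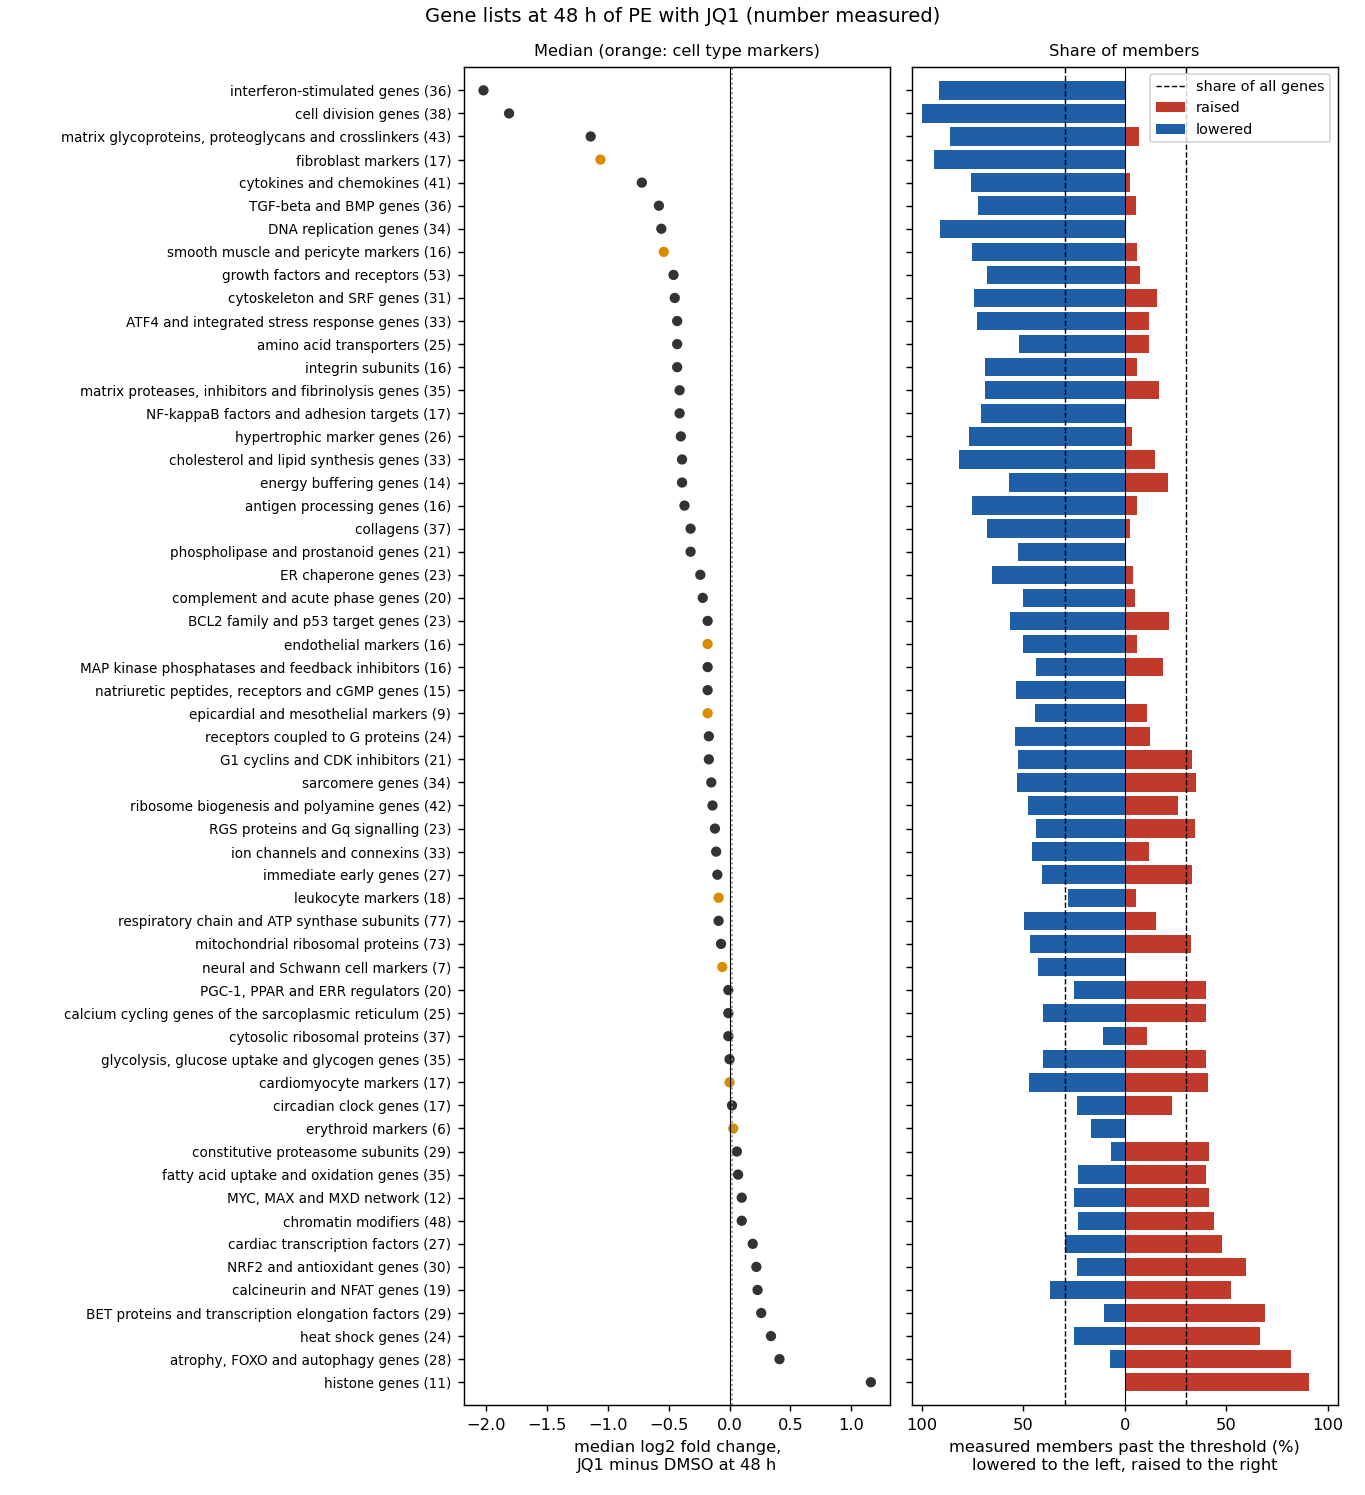
The 57 gene lists, with the number of measured members, in order of their median log2 fold change of JQ1 against DMSO at 48 h (left panel, x axis; cell type markers in orange). The right panel gives the percent of members lowered (blue) and raised (red), with dashed lines at the shares of all genes, 29.6% and 30%. Interferon and cell division genes lie at the lower end and histone genes at the upper.

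The effect at 48 h was set against that at 6 h, which came from other arrays (3 with JQ1, 2 with DMSO). Across all genes the 2 effects correlated at r = 0.70 (Spearman 0.65), as a description over genes, which are not independent replicates. Of 5580 genes called at both times, 4942 moved the same way (88.6%). Of 163 genes raised at least 2-fold at 6 h, 147 were raised at 48 h (90.2%), and of 490 lowered as much, 462 were lowered (94.3%), 298 of them again at least 2-fold. Those 298 were 60.8% of the 490 and 37.4% of the 796 genes lowered 2-fold at 48 h. The 796 had a median of -0.80 at 6 h and -1.50 at 48 h, and the 185 raised genes 0.85 and 1.24. The difference between the effects passed an adjusted p of 0.05 for 5111 genes (38.8%). All 38 cell division genes were in that set, each lower at 48 h. Genes raised at least 2-fold by PE at 6 h, on arrays not used for the 48 h effect, were lowered by JQ1 at 48 h in 95 of 133 cases (71.4%) and raised in 18 (13.5%). Those lowered as much by PE at 6 h were raised by JQ1 at 48 h in 31 of 70 cases (44.3%) and lowered in 25 (35.7%), with a median of 0.02. Over all genes, JQ1 at 48 h raised 30% and lowered 29.6%, with the same median of 0.02.

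Several genes changed sign or appeared late. G0s2, an inhibitor of the lipase that breaks down stored fat, read 10.72, 10.65 and 10.83 with DMSO and 11.61, 11.69 and 11.71 with JQ1 at 48 h, a rise of 0.93 after a fall of 2.29 at 6 h. The heart-specific gene Lrrc10 had effects of -2.37 at 6 h and 0.32 at 48 h, Pik3ip1 -0.66 and 1.55, Sphkap -0.76 and 1.23 and Asb12 -1.15 and 0.77. Stc1 and Tmem196 kept a negative sign but shrank from -3.11 to -0.60 and from -2.89 to -0.50. On the late side, Aspn went from -0.70 to -5.33, Myom2 from -0.94 to -4.44, Glod5 from -1.18 to -4.55, Fndc1 from -0.50 to -3.37, Bst2 from -0.49 to -3.16 and Itgbl1 from -0.19 to -2.82. For Brd2 the effects were 2.0 at 6 h and 2.17 at 48 h, and for Polr2a 1.36 and 1.38, and neither difference passed (adjusted p 0.0957 and 0.921). Myc went from 1.37 to -0.25 and Hbegf from 0.82 to -0.71. Ribosome biogenesis genes were raised in 26 of 42 cases at 6 h (25.5% of all genes) and in 11 at 48 h (30%). By the test of the difference, 33 of the 42 were lower at 48 h (38.8% of all genes differed in either direction).

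**Figure D5:**
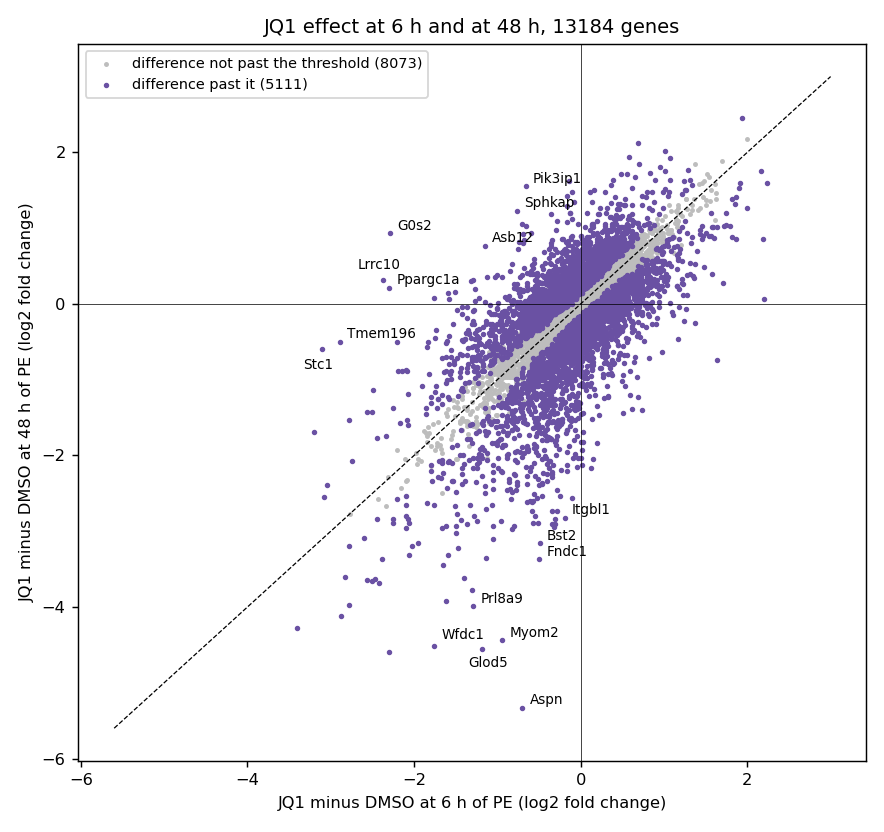
Each point is a gene, with the log2 fold change of JQ1 against DMSO at 6 h on the x axis and at 48 h on the y axis, and the dashed line marks equal effects. The 5111 genes whose effects differed are in purple, with Aspn, Glod5 and Myom2 far below the line and G0s2, Lrrc10 and Stc1 above it.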

How the data were processed

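RNA went onto a rat expression array of Affymetrix, as the labels' protocols state. The authors deposited log2 expression values per probe set. How they summarized, corrected and normalized the probes is not given in the sources used here; limma is listed in the submitters' processing notes, with no role. Of 20223 probe sets, 18510 had 1 gene symbol, named through the rat RefSeq table (GRCr8) where matched. The 13184 genes each used the probe set with the highest mean over 14 arrays. One limma 3.58.1 model (R 4.3.3) with a mean per group and 9 residual degrees of freedom covered all 14 arrays. P-values were two-sided and adjusted over all genes, and the fit was tested on simulated data. The median SE at 48 h was 0.060, and the number of arrays limits the precision. The 57 gene lists (1568 of 1735 entries measured) and the genes and arrays described were chosen with earlier results of these data known, so no list was tested. Named genes are the 15 most raised and 15 most lowered without overlap, 5 each among bright genes, 8 each by difference from 6 h, up to 5 and 2 per list, and a panel. The lowest, highest and unpassed members of lists, and Cdk9, Hbegf, Ankrd1, Mef2c, Pln, Ptgs2, Adra1a, Fgf2, Pcna and Trim63, were named after their values were seen, and some panel genes were not analysed here.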

Additional observations from a re-analysis of the deposited data

Results flagged for a closer look

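The effect of JQ1 differed between 48 h and 6 h of PE for 5111 genes by the test of the difference itself (limma, adjusted over 13184 genes), and the named ones with the largest differences follow as 48 h minus 6 h on the log2 scale. Higher at 48 h were G0s2 (3.22), Lrrc10 (2.69), Stc1 (2.52), Ppargc1a (2.51), Tmem196 (2.40), Pik3ip1 (2.21), Sphkap (1.99) and Asb12 (1.93). Lower at 48 h were Aspn (-4.63), Myom2 (-3.50), Glod5 (-3.38), Fndc1 (-2.87), Wfdc1 (-2.76), Prl8a9 (-2.70), Bst2 (-2.66) and Itgbl1 (-2.63). The 6 h effect rested on 2 DMSO arrays. Ppargc1a had an effect of -2.30 at 6 h and overlapping arrays at 48 h.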

How the results depend on the processing

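Counts of called genes, of 2-fold changes and of differences from 6 h stayed within 1.5 times their main values in every setting run. Called genes were 7413 to 7525 with 1 of the 6 arrays left out, 7728 with a replicate block, 8132 after repeated quantile normalization, 7751 with probe sets averaged, 7292 without dim genes, 7823 with only the 6 arrays fitted, 7945 with an intensity trend and 8364 with arrays centred on their medians. Leaving out 1 array gave 175 to 188 genes raised and 778 to 818 lowered at least 2-fold. Centring moved the share of raised genes among calls to 62.3%. Same-numbered arrays did not pair (correlations of deviations 0.02, 0.05 and -0.08), so the replicate block counts as a setting only, with 4865 differences from 6 h. Of 387 named genes called, 372 were called in every setting. Rpl11 was 0.00 under centring (main -0.09), and the median of the RGS and Gq list 0.00 without dim genes (main -0.12). Over all lists and settings, 1396 counts of raised or lowered members stayed within 1.5 times, 47 grew and 39 shrank further. Of the list medians, 586 stayed within the spread between arrays, 154 moved beyond it and 1 reversed. The cause of these shifts was not tested. Of other probe sets of called named genes, 111 passed in the same direction, 23 had it and did not pass, 15 had the opposite sign and did not pass, and 2 passed in the opposite direction, Slc7a1 (0.23) and Trdn (0.26). Among those that did not pass was a probe set each of S1pr1 (-0.20, main -1.70), Thbd (-0.15, main -2.39) and Klf15 (0.10, main 0.85). For Rgs3 a dimmer probe set passed at -0.15 (main -2.06). Depth has no counterpart on these arrays; 205 of the 796 genes lowered 2-fold were dim with JQ1.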

Other observations

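Circadian clock genes, not described above, divided evenly, with 4 of 17 raised and 4 lowered by JQ1 at 48 h (30% and 29.6% of all genes). Per2, a repressor arm of the clock, read 9.81, 9.74 and 9.65 with DMSO and 8.37, 8.39 and 8.43 with JQ1, without overlap (log2 -1.33, adjusted p 1.46e-10). The dimmer probe set of Per2 gave -0.31. Npas2 fell by 1.05 and Bhlhe40 by 0.77, while the output gene Tef rose by 0.90 and Nr1d2 by 0.95. Of 25 amino acid transporter genes 13 were lowered (52.0%) and 3 raised (12.0%). The cationic transporter gene Slc7a3 fell by 1.07, Slc7a7 by 1.43 and Slc43a1 by 1.20, and the creatine transporter gene Slc6a8 rose by 0.96. Among 23 genes of the BCL2 family and of p53, 13 were lowered (56.5%) and 5 raised (21.7%). Sesn1, a stress-induced inhibitor of mTOR signalling, was at 1.64, Bnip3l at 1.01 and Bok at -0.81.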
